A study of Homo sapiens with 12 samples.

Results

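The genes described here act at mitochondria in the removal of damaged or surplus organelles and in cell death under low oxygen. They are BNIP3, BNIP3L, FAM162A, FUNDC1, PINK1 and PHB2, taken as the rows of the count table with those symbols, 6 of 51141 rows. All 6 passed the filter on low counts, as did 14447 rows in all. RNA was measured in EA.hy926 cells, a human line obtained as a hybrid of HUVEC endothelial cells and the tumour line A549. The 12 libraries fall into 4 groups of 3: control (neither TEPA nor low oxygen), hypoxia (8 h in 1% oxygen), TEPA (50 µM for 16 h, then 8 h at normal oxygen) and TEPA+hypoxia (the same exposure to TEPA, then 8 h in 1% oxygen). TEPA is a polyamine that chelates copper, and the series as titled asks how copper bears on transcription by HIF-1, the factor that low oxygen stabilises. All groups are 1 cell line, so the values describe that line, and the labels do not say whether the 3 libraries of a group are separate cultures, so p-values measure only the spread between these libraries.

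Mitophagy is the delivery of mitochondria to lysosomes by autophagosomes. In one route, receptor proteins on the outer membrane bind ATG8 proteins of the autophagosome directly. BNIP3 and its homologue BNIP3L (also called NIX) are such receptors, belong to the BH3-like branch of the BCL2 family, and are known as HIF-1 target genes; FUNDC1 is a receptor governed largely by phosphorylation. In the other route, the kinase PINK1 builds up on damaged mitochondria and recruits the ubiquitin ligase parkin. PHB2, a prohibitin of the inner membrane, can serve as a receptor once the outer membrane is breached. FAM162A (also called HGTD-P) is a mitochondrial protein linked to cell death in hypoxia.

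Promoter sequences are shown for the pair of members whose windows held the core letters to which HIF-1 is known to bind, ACGTG or GCGTG. RefSeq promoter windows (GRCh38.p14, 300 bases each, most of them before the gene's start) were found for 4 of the 6 genes, and PINK1 and BNIP3L had no entry. The letters were searched on both strands, and overlapping matches were counted. The window of BNIP3 held 6 matches, 4 of GCGTG and 2 of ACGTG; the latter are the 2 strands of a single palindrome, CACGTG. That of FAM162A held 4, 3 of GCGTG and 1 of ACGTG. The windows of FUNDC1 and PHB2 (2 windows) held 0. Of 35116 windows in the table, 48.4% held at least 1 match, 0.923% held 6 or more and 4.4% held 4 or more. The sequence upstream of the annotated gene start is given 5′ to 3′ on the gene's strand, with the matched letters, or their complement, in capitals.
BNIP3, chr10:131982014-131982173, minus strand: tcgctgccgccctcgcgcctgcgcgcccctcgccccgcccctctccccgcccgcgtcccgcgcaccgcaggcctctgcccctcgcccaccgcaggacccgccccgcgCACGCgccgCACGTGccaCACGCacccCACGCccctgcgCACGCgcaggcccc
FAM162A, chr3:122383932-122384175, plus strand: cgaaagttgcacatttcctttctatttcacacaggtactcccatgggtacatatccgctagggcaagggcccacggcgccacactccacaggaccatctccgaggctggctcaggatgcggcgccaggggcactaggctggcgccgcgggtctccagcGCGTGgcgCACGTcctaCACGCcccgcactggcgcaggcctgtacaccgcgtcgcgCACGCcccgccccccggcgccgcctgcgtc
Counted from the RefSeq start, the BNIP3 matches lie at positions -143 to -104 and those of FAM162A at -92 to -36. The GC content of the whole window was 80.7% for BNIP3 and 68.0% for FAM162A, against 63.0% for FUNDC1 and 57.0% for PHB2. A match is a description of the letters and was not tested for binding.

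Library totals ran from 13406858 to 24778944 counts. Values are CPM, counts scaled to a common library size after TMM normalisation (a scaling by the bulk of genes), and 3 counts in a library correspond to 0.118 to 0.267 CPM. Hypoxia 2 and 3 stood apart from the other 10 libraries. Their TMM factors were 0.772 and 0.838 against 1.03 to 1.08, and ribosomal protein genes held 8.94% and 7.72% of their counts against 2.84% to 4.55%. On the first principal component, which held 76.2% of the variance, they lay at 126 and 105 and the others between -51.6 and 11.8. Of 10 endothelial markers, 8 reached 1 CPM in every group (EMCN and CLDN5 were listed at 0), and their summed level was 4130 to 4579 CPM in hypoxia 2 and 3 and 2737 to 3145 CPM elsewhere. The sum is led by the abundant markers and does not give the direction of each. Over the 12 libraries ENG ran from 827 to 3390 CPM, CDH5 from 274 to 773 CPM and TEK from 2.28 to 82.0 CPM. Of 7 epithelial markers, 3 did so (KRT7, KRT8 and KRT18; CDH1 was listed at 0), with sums of 15539 to 18185 CPM in hypoxia 2 and 3 and 5440 to 7690 CPM elsewhere. Fibroblast markers (1 of 8 at 1 CPM or more, sums of 6.92 to 12.7 CPM) and leukocyte markers (1 of 6, sums of 3.75 to 6.26 CPM) were low throughout, with COL3A1, DCN and PTPRC at 0. The part of these differences in the results was not tested, so results of the 6 genes that use the hypoxia group are given with and without hypoxia 2 and 3. Without them the hypoxia group is hypoxia 1 alone, which is assumed to vary like the other groups. Those fits hold no spread within hypoxia. In cultures measured in bulk, fewer cells of a kind and less RNA per cell cannot be told apart.

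**Figure D1:**
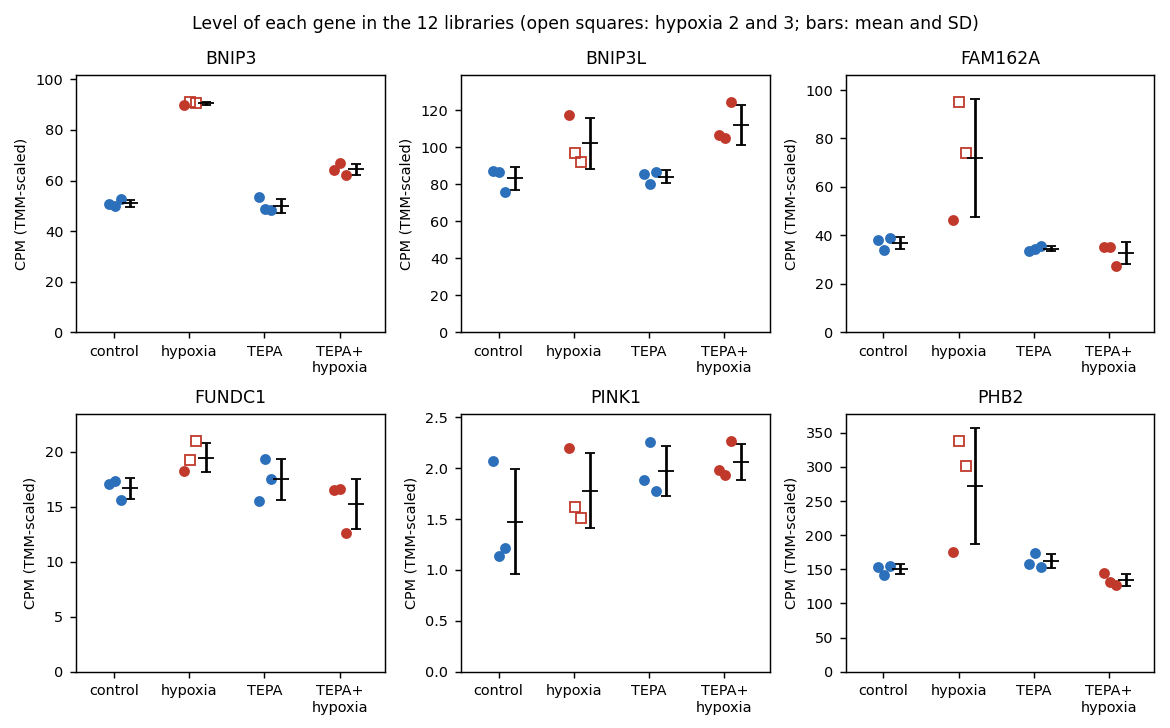
CPM (TMM-scaled, linear axis from 0) of the 6 genes in each library, by group; circles are libraries, open squares are hypoxia 2 and 3, and black bars are the mean and SD of 3 libraries. BNIP3 sat near 90 CPM in all 3 hypoxia libraries, while FAM162A and PHB2 were far higher in hypoxia 2 and 3 than in hypoxia 1.

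Low oxygen alone went with higher BNIP3, FAM162A and PHB2 RNA and a smaller rise of BNIP3L, and of these 4 genes BNIP3 was the most even over the 3 hypoxia libraries. BNIP3 (chromosome 10, 131966455 to 131982013) was at 50.6, 49.8 and 52.5 CPM in control 1, 2 and 3 and at 89.7, 91.0 and 90.8 CPM in hypoxia 1, 2 and 3. Every hypoxia library was above every control library, and the spread inside each group was small beside the gap. BNIP3 rose, by 0.83 ± 0.08 on the log2 scale (± SE, as for all log2 fold changes; adjusted p = 0.00221 from edgeR's quasi-likelihood test with Benjamini-Hochberg adjustment over all genes tested). It held the 4th smallest p of the 14447 genes, while its log2 fold change ranked only 2573 from the highest. Without hypoxia 2 and 3, so with hypoxia 1 as the sole hypoxia library, the change was 0.81 ± 0.10. That change ranked 610 of 15195 from the highest.

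BNIP3L (chromosome 8, 26382898 to 26505636) was at 86.9, 86.5 and 75.9 CPM in the control libraries and at 118, 96.9 and 91.9 CPM in hypoxia 1, 2 and 3. The groups did not overlap, and hypoxia 1 was the highest. Its log2 fold change was 0.30 ± 0.12 (adjusted p = 0.0457, edgeR), just inside the threshold. The call was kept when hypoxia 3 or TEPA+hypoxia 3 was left out and lost when any of the other 10 libraries was, with adjusted p up to 0.161. Without hypoxia 2 and 3 the change was larger, 0.50 ± 0.11, and not called (adjusted p = 0.0627, edgeR).

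FAM162A (chromosome 3, 122384176 to 122412334) was at 38.0, 34.2 and 38.9 CPM in the control libraries and at 46.5, 95.0 and 74.1 CPM in hypoxia 1, 2 and 3. All hypoxia libraries were higher, with hypoxia 1 nearest to the control libraries. The log2 fold change of 0.96 ± 0.21 passed the test (adjusted p = 0.00614, edgeR). It was 0.33 ± 0.15 without hypoxia 2 and 3, and not called (adjusted p = 0.209).

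PHB2 (chromosome 12, 6965327 to 6970825) had the same shape. It was at 154, 142 and 155 CPM in the control libraries and at 175, 337 and 302 CPM in hypoxia 1, 2 and 3. Its log2 fold change of 0.85 ± 0.19 passed the test (adjusted p = 0.00618, edgeR), and without hypoxia 2 and 3 it was 0.22 ± 0.11 and not called (adjusted p = 0.243). PHB, the other prohibitin of the inner-membrane complex, was at 334 ± 19.5 CPM (SD, n = 3) in control and at 378, 970 and 793 CPM in hypoxia 1, 2 and 3, and without hypoxia 2 and 3 it was not called (0.18 ± 0.14, adjusted p = 0.449).

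FUNDC1 (chromosome X, 44523639 to 44543001) was at 17.0, 17.4 and 15.6 CPM in control and 18.2, 19.2 and 20.9 CPM in hypoxia. The groups did not overlap, yet the log2 fold change of 0.22 ± 0.14 did not pass the test (adjusted p = 0.182, edgeR). PINK1 (chromosome 1, 20633455 to 20651511) was the rarest, with 17 to 48 counts per library. It was at 2.07, 1.13 and 1.22 CPM in control and 2.20, 1.62 and 1.51 CPM in hypoxia, and the groups overlapped (0.26 ± 0.27, adjusted p = 0.417, edgeR). With hypoxia 1 as the sole hypoxia library, FUNDC1 was at 0.13 ± 0.18 (adjusted p = 0.699) and PINK1 at 0.55 ± 0.36 (adjusted p = 0.378). PINK1-AS, on the opposite strand, covers 39.4% of the exon bases of PINK1 and had 2820 counts in all. The strand setting of the counting is not given in the sources used here, so reads of that pair may not be separable. MIR6084 lies within a PINK1 exon on the same strand and had 398 counts, and SCARNA12 covers 9.56% of the exon bases of PHB2 on its strand and had 1429 counts.

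In all, 4 of the 6 genes were called higher in hypoxia and 0 lower. Of all genes tested, 57.2% were called, 29.4% higher and 27.8% lower. In 5 of the 6 genes the hypoxia libraries all lay above the control libraries, as they did in 27.4% of all genes tested. Without hypoxia 2 and 3, 1 of the 6 (BNIP3) was called higher, where 0.283% of all genes were. When control and hypoxia were fitted alone, so that their spread was not pooled with that of the TEPA groups, no gene of 13876 was called (percent called 0; 6939 had an unadjusted p under 0.05), and BNIP3, FAM162A and PHB2 each had an adjusted p of 0.0582 (edgeR); DESeq2 on all 12 libraries called 8601 genes.

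The scaling moves the hypoxia values. By library totals alone, an alternative chosen after seeing the data, the change of the median gene shifted from -0.01 to -0.24 and called genes were 20.1% higher and 33.5% lower. On that scale BNIP3 was at 92.2, 70.1 and 76.0 CPM in hypoxia 1, 2 and 3, still above all control libraries (51.7 to 54.3), with a log2 fold change of 0.59 ± 0.11 (adjusted p = 0.0089, edgeR). FAM162A at 0.67 (adjusted p = 0.0103) and PHB2 at 0.57 (adjusted p = 0.00995) were also called, so 3 of 6 were higher against 20.1% of all genes. BNIP3L was at 121, 74.7 and 76.9 CPM in hypoxia, overlapping control (78.5 to 89.7), and was not called (0.08 ± 0.17, adjusted p = 0.697). FUNDC1 changed sign, to -0.02.

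**Figure D2:**
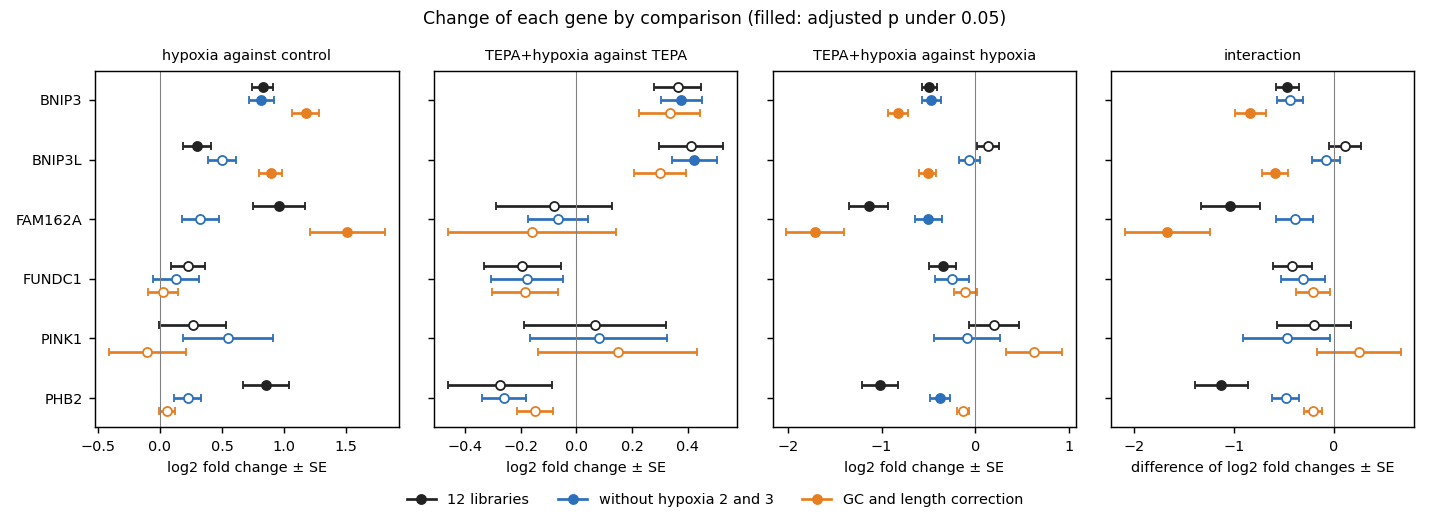
Log2 fold change ± SE (x axis) of the 6 genes in 4 comparisons, fitted to 12 libraries (black), without hypoxia 2 and 3 (blue) or after correcting for GC content and length (orange); filled symbols have an adjusted p under 0.05 and scales differ between panels. In hypoxia against control, BNIP3 was called in all 3 fits, and PHB2 only with 12 libraries and no correction.

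Between TEPA and control at normal oxygen, no difference was detected in the 6 genes. No gene of 14447 was called between TEPA and control by edgeR (percent called 0; 289 had an unadjusted p under 0.05), and DESeq2 called 4 (0.0153%). BNIP3 was at 53.3, 48.6 and 48.2 CPM with TEPA, and its log2 fold change was -0.03 ± 0.08. The largest of the 6 was PINK1 at 0.40 ± 0.26, with libraries at 1.88, 2.25 and 1.78 CPM. For all 6 genes the TEPA libraries overlapped those of the control, while in 13.6% of all genes tested they did not.

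With TEPA present, BNIP3 and BNIP3L were higher in every library at low oxygen than in every library at normal oxygen, as were 12.5% of all genes tested. The test called them only in some fits. BNIP3 was at 64.1, 66.8 and 62.3 CPM in TEPA+hypoxia. BNIP3L was at 107, 105 and 124 CPM, against 85.8, 80.4 and 86.5 CPM with TEPA alone. The log2 fold changes were 0.36 ± 0.08 for BNIP3 (adjusted p = 0.204, edgeR) and 0.41 ± 0.12 for BNIP3L (adjusted p = 0.314), and 0 of the 6 were called, where 0.0969% of all genes were (0.0623% higher). Those fits take their spread partly from hypoxia 2 and 3, which this comparison does not use. Without that pair, BNIP3 (0.38 ± 0.07, adjusted p = 0.0225) and BNIP3L (0.42 ± 0.08, adjusted p = 0.0189) were both called higher (edgeR), 2 of 6 where 1.32% of all genes were. Leaving out hypoxia 1 alone gave calls for BNIP3 and BNIP3L too, where 1.03% of all genes were called higher. Fitting TEPA and TEPA+hypoxia alone also called both (1.47% of all genes called higher). DESeq2 on 12 libraries called BNIP3 (0.508% of all genes higher).

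FAM162A was at 33.6, 34.5 and 35.5 CPM with TEPA and 35.4, 35.0 and 27.4 CPM in TEPA+hypoxia (-0.08 ± 0.21, adjusted p = 0.934, edgeR). PHB2 was lower in every TEPA+hypoxia library (144, 132 and 126 CPM) than in every TEPA library (158, 174 and 154 CPM), as were 18% of all genes, and did not pass the test (-0.27 ± 0.19, adjusted p = 0.799). FUNDC1 (-0.19 ± 0.14) and PINK1 (0.07 ± 0.25) overlapped between these groups.

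Under low oxygen, BNIP3, FAM162A and PHB2 were lower with TEPA than without. The log2 fold change was -0.49 ± 0.08 for BNIP3 (adjusted p = 0.00217, edgeR), -1.14 ± 0.21 for FAM162A (adjusted p = 0.00217) and -1.02 ± 0.19 for PHB2 (adjusted p = 0.00218). FUNDC1 was also called, at -0.35 ± 0.14 (adjusted p = 0.0461), with libraries at 16.5, 16.6 and 12.6 CPM; that call was kept when hypoxia 1 was left out and lost when any of the other 11 libraries was. BNIP3L (0.13 ± 0.12, adjusted p = 0.334) and PINK1 (0.20 ± 0.27, adjusted p = 0.523) were not called. When hypoxia 1 was left out, BNIP3L was called higher (0.27 ± 0.09, adjusted p = 0.0165), as were 39% of all genes. In all, 4 of 6 were lower, where 30.6% of all genes were and 61.5% were called in either direction. The TEPA+hypoxia libraries of the same 4 genes all lay below the hypoxia libraries, as they did in 30.5% of all genes.

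Against hypoxia 1 alone, the same comparison left BNIP3 at -0.47 ± 0.10 (adjusted p = 0.0189, edgeR), while FAM162A shrank to -0.50 ± 0.15 (adjusted p = 0.0385) and PHB2 to -0.38 ± 0.11 (adjusted p = 0.0354). FUNDC1 (-0.25 ± 0.18, adjusted p = 0.363), BNIP3L (-0.06 ± 0.11, adjusted p = 0.727) and PINK1 (-0.09 ± 0.35, adjusted p = 0.891) were not called. Thus 3 of 6 were called lower, where 7.17% of all genes were. With 1 library in an arm, it is assumed to vary like the other groups. By library totals alone BNIP3 was at 68.9, 71.9 and 65.9 CPM in TEPA+hypoxia, overlapping hypoxia, and was not called (-0.21 ± 0.11, adjusted p = 0.137), while FAM162A (-0.81) and PHB2 (-0.69) were, 2 of 6 against 20.4% of all genes called lower. The median gene was then at 0.31, against 0.03 on the TMM scale, and called genes were 39.3% higher and 20.4% lower.

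The interaction asks whether the response to low oxygen differed with TEPA. It was negative and called for BNIP3 (-0.46 ± 0.12, adjusted p = 0.0236, edgeR), FAM162A (-1.04 ± 0.29, adjusted p = 0.0251) and PHB2 (-1.13 ± 0.27, adjusted p = 0.0236), 3 of 6, where 38.8% of all genes were called and 21.5% were called lower. By library totals alone 16.0% were called higher and 12.5% lower, against 17.3% higher on the TMM scale, and BNIP3 was not called (-0.18 ± 0.16, adjusted p = 0.383). For BNIP3L it was 0.11 ± 0.16 (adjusted p = 0.583), for FUNDC1 -0.42 ± 0.20 (adjusted p = 0.102) and for PINK1 -0.20 ± 0.37 (adjusted p = 0.678). None was called without hypoxia 2 and 3 (percent called 0 by edgeR), where the smallest adjusted p of any gene was 0.0643 (4117 genes had an unadjusted p under 0.05). BNIP3 was then at -0.44 ± 0.13 (adjusted p = 0.0758, edgeR), close to its value over 12 libraries, while FAM162A, at -0.39 ± 0.18, and PHB2, at -0.48 ± 0.13, were nearer to 0 than over 12 libraries. All 3 calls were also lost when control 1, control 2, hypoxia 3, TEPA 2 or TEPA+hypoxia 3 was left out, and that of FAM162A without hypoxia 2 or TEPA 3 as well.

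Ordered by mean level, BNIP3 was highest in hypoxia (90.5 ± 0.695 CPM, SD, n = 3), next in TEPA+hypoxia (64.4 ± 2.26), and lowest in control (51.0 ± 1.38) and TEPA (50.1 ± 2.81). Only the last pair overlapped. For BNIP3L, TEPA+hypoxia (112 ± 10.8 CPM) and hypoxia (102 ± 13.7) overlapped and lay above TEPA (84.2 ± 3.33) and control (83.1 ± 6.25), which overlapped too. For FAM162A and PHB2, hypoxia stood above the other 3 groups, each of which overlapped its neighbour in the order. For FUNDC1 and PINK1 all neighbouring groups overlapped. Per kilobase of the principal transcript, in control, PHB2 was the most abundant of the 6 at 99.2 CPM per kb, followed by BNIP3L at 23.0, BNIP3 at 17.8, FUNDC1 at 13.9, FAM162A at 12.1 and PINK1 at 0.554.

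BNIP3 was among the most even genes over the hypoxia libraries. Its coefficient of variation over the 3 hypoxia libraries was 0.769%, against a median of 24.0% for the 10121 genes with a mean of at least 5 CPM, and 15 of those genes had a smaller one. FAM162A had 33.9%, PHB2 31.3%, BNIP3L 13.4% and FUNDC1 6.99%. In control the coefficient of BNIP3 was 2.70%, against a median of 8.00%. The values of BNIP3 by library totals, above, were less even, so the evenness holds on the TMM scale. BNIP3 had 1386, 1238 and 1019 counts in hypoxia 1, 2 and 3, and sampling of such counts alone is expected to spread more than 0.769%. The rank over 3 libraries is therefore no measure of how evenly the gene is expressed.

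In hypoxia against control, the change of a gene went with the base composition of its transcript, and the 6 genes differ in it. The principal transcripts of BNIP3L, FAM162A and FUNDC1 had 38.9%, 40.2% and 40.7% GC, BNIP3 44.8%, PHB2 56.8% and PINK1 58.6%, where the median of 12556 genes was 49.1%. Genes within 1 percentage point of GC of BNIP3L had a median log2 fold change of -0.59 in hypoxia against control, those near FAM162A -0.53, those near FUNDC1 -0.48 and those near BNIP3 -0.30, while those near PHB2 had 0.32 and those near PINK1 0.41. BNIP3, BNIP3L, FAM162A and FUNDC1 thus lay on the opposite side of 0 from genes of like composition. When GC content and length were corrected for, the hypoxia response was 1.17 ± 0.11 for BNIP3 (adjusted p = 0.000605, edgeR), 0.89 ± 0.09 for BNIP3L (adjusted p = 0.00134) and 1.51 ± 0.30 for FAM162A (adjusted p = 0.00643), 3 of 6 called higher against 22.7% of all genes. That of PHB2 was 0.06 ± 0.07 (adjusted p = 0.477), no longer called, and FUNDC1 was at 0.02 ± 0.12 (adjusted p = 0.881).

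The same correction turned BNIP3L in TEPA+hypoxia against hypoxia to -0.51 ± 0.09 (adjusted p = 0.00261, edgeR) and its interaction to -0.59 ± 0.13 (adjusted p = 0.0353), both called. BNIP3, BNIP3L and FAM162A were then the 3 of 6 called lower in each, against 25.1% and 10.9% of all genes. The interaction calls were lost when the replicate block was added to the correction (adjusted p = 0.0567 for each of the 3, and 0 of 12556 genes called by edgeR, with 4769 at an unadjusted p under 0.05). They were also lost when hypoxia 2 and 3 were left out of it. PHB2 was called in neither (-0.13 ± 0.07 and -0.21 ± 0.09). With the correction and without hypoxia 2 and 3, BNIP3 (0.90 ± 0.09, adjusted p = 0.000186) and BNIP3L (0.66 ± 0.07, adjusted p = 0.000186) were called higher in hypoxia, where 1.15% of all genes were, and both were called higher in TEPA+hypoxia against TEPA, at 0.35 ± 0.07 and 0.31 ± 0.05 (adjusted p = 0.00863 and 0.00257), where 2.83% of all genes were. FAM162A (0.44 ± 0.15, adjusted p = 0.124) and PHB2 (-0.02 ± 0.07, adjusted p = 0.911) were not called in hypoxia there.

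**Figure D3:**
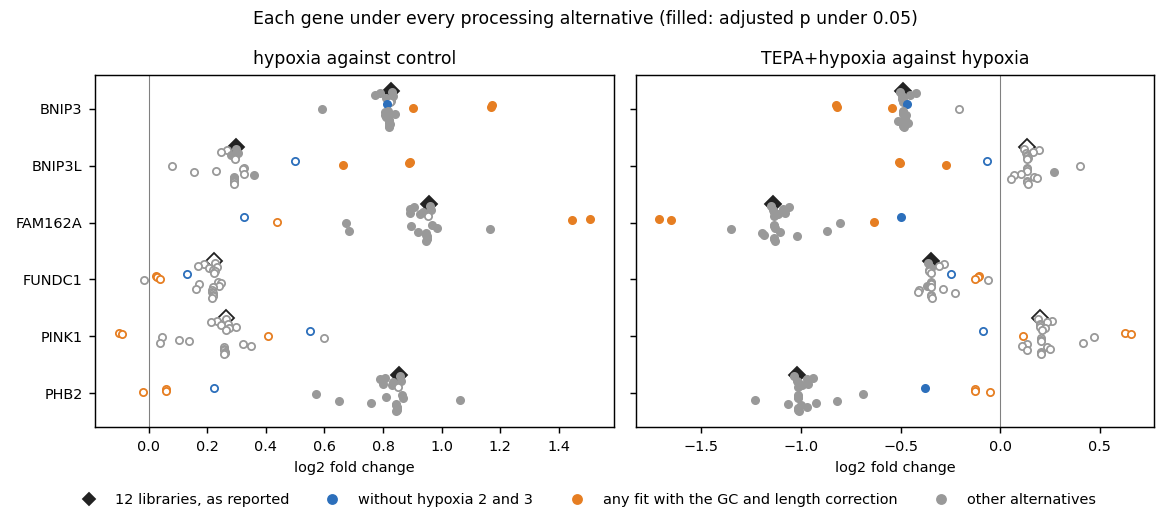
Log2 fold change (x axis) of each gene under every processing alternative, in 2 comparisons; diamonds are the values reported first, blue circles leave out hypoxia 2 and 3, orange circles carry the GC and length correction, grey circles are the other alternatives, and filled symbols have an adjusted p under 0.05. All fits of BNIP3 in hypoxia against control lay above 0.5, whereas those of PHB2 ran from -0.02 to 1.06.

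Genes with the most similar profile were ranked by the root mean square difference of centred log2 CPM, over genes with a mean of at least 5 CPM. Over 12 libraries, NDRG1 (0.0919), HOXD8 (0.0999) and PPID (0.105) were nearest to BNIP3L. Over the 10 libraries without hypoxia 2 and 3, NDRG1 (0.0912), NREP (0.0916) and MAMLD1 (0.0941) were nearest and almost level. NDRG1 is itself known as a hypoxia-induced gene. For BNIP3 the nearest were PARS2, BCAR1 and ARC (0.10 to 0.11) over 12 libraries and HSPA1A, NARF and BCAR1 (0.08 to 0.10) over 10. For FAM162A they were RPL7P9, PARK7 and UQCRB (0.05 to 0.06), then TCEB1, MRPS23 and MYL12B (0.04). For PHB2 they were SLC25A39, TACC3 and RNMTL1 (0.04 to 0.05), then RUVBL2, CTDNEP1 and BABAM1 (0.03 to 0.04). EIF5AP4 was nearest to FUNDC1 in both sets (0.07). Genes near PINK1 were no closer than 0.22 over 12 libraries, where PINK1 itself varied by 0.30. These are descriptions over libraries that share groups, hypoxia 2 and 3 and their base composition.

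Reads of near copies were few. The table held 26 rows named as BNIP3 pseudogenes, of which 3 had any count (226 in all, at most 17 in a library), and 1 PHB2 pseudogene with 0. PNMA2, on the opposite strand, overlaps 7.66% of the exon bases of BNIP3L and had 11381 counts in all. As the strand setting is not given, reads from that overlap may not be separable either. FUNDC2, the paralogue of FUNDC1, was at 47.3 ± 3.03 CPM in control (SD, n = 3) and at 51.6, 83.5 and 75.7 CPM in hypoxia 1, 2 and 3, so that hypoxia 1 lay close to the highest control library (50.8 CPM).

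The rest of the mitophagy and mitochondrial death machinery moved in both directions in hypoxia against control over 12 libraries. Median log2 fold changes of the lists ran from -0.54 (cargo adaptors) to 0.55 (BCL2 family). Without hypoxia 2 and 3, where hypoxia is 1 library, they ran from -0.14 (cargo adaptors) to 0.13 (mitochondrial housekeeping). Of 15 tested genes around PINK1 and parkin, 3 rose and 7 fell (median log2 fold change -0.27, against -0.01 over all genes). TOMM7, an import subunit that holds PINK1 at the outer membrane, rose by 1.41 ± 0.33 (41.0 to 109 CPM), and the import pore TOMM40 rose by 0.83 ± 0.21. The mitofusin MFN2, a substrate of parkin, fell by 0.58 ± 0.14, and the deubiquitinase USP8 was at -2.17 ± 0.53 (6.31 to 1.32 CPM). With the GC and length correction TOMM40 changed sign, to -0.21 ± 0.05. Parkin itself (row PARK2) was listed at 0 in every library. TOMM7 was at 0.24 and MFN2 at -0.25 without hypoxia 2 and 3. Over all genes named here from the lists, the values in that fit ran from -1.92 (XIAP) to 0.77 (HSPE1), with adjusted p from 0.0642 (MTFP1) to 0.901 (HTRA2).

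The adaptor list held 6 genes: cargo adaptors, which link ubiquitinated cargo to ATG8 proteins, and the kinase TBK1. Of these 6 genes, 0 rose and 4 fell (median -0.54). NBR1 was at -0.51 ± 0.12, TAX1BP1 at -0.71 ± 0.18, the kinase TBK1 at -1.91 ± 0.54 and CALCOCO2 at -0.31 ± 0.12. With the correction NBR1 and CALCOCO2 changed sign, to 0.10 ± 0.06 and 0.20 ± 0.07. Of 13 other receptors and regulators, 4 rose and 4 fell (median 0.04). The receptor FKBP8 rose by 1.11 ± 0.24 (243 to 525 CPM), SPATA33, a receptor in germ cells, by 0.94 ± 0.20, and PHB by 1.10 ± 0.26. PPTC7, a mitochondrial phosphatase that restrains BNIP3 and BNIP3L, fell by 0.96 ± 0.18 (43.3 to 22.2 CPM). With the correction FKBP8 was at 0.04 and not called, PPTC7 was at -0.28 and SPATA33 at 0.38.

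Of 26 genes of ATG8 proteins and autophagosome formation, 8 rose and 7 fell (median 0.03). ATG101 of the ULK complex rose by 1.29 ± 0.25 and the ATG8 protein GABARAP by 0.95 ± 0.22, while RB1CC1, the scaffold of that complex, was at -1.07 ± 0.25 and the lipid kinase subunit PIK3R4 at -0.81 ± 0.17, both called lower. With the correction ATG101 was at 0.29, GABARAP at 0.60 and RB1CC1 at -0.30, and PIK3R4 was not called (-0.16, adjusted p = 0.199). Of 14 tested genes of the BCL2 family, 7 rose and 2 fell (median 0.55). The pro-apoptotic members BAD (1.59 ± 0.31), BBC3 (0.98 ± 0.22), BAX (0.97 ± 0.25) and BOK (0.97 ± 0.18) rose, but with the correction BAX changed sign, to -0.26 ± 0.06, as did BBC3, at -0.12 ± 0.11, BAD was at 0.21, BOK at 0.26, and the family had 4 higher and 4 lower.

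Of 10 effectors of the intrinsic death pathway, 5 rose and 2 fell (median 0.19). DIABLO, an antagonist of XIAP, rose by 0.72 ± 0.15, the nuclease ENDOG by 1.56 ± 0.33 and the protease HTRA2 by 0.75 ± 0.22; the caspase inhibitor XIAP fell by 2.08 ± 0.59, at 1.47 CPM in control and 0.336 CPM in hypoxia, near the floor. With the correction ENDOG (0.14, adjusted p = 0.261), HTRA2 (0.13, adjusted p = 0.371) and XIAP (-1.26, adjusted p = 0.0779) were not called, and DIABLO was at 0.30. Of 11 genes of fission and fusion, 3 rose and 5 fell (median -0.30), with FIS1 at 1.41 ± 0.29 and MTFP1 at 1.80 ± 0.30 (0.25 and 0.74 with the correction). Of 20 mitochondrial housekeeping genes, whose abundant proteins are often used to gauge mitochondrial content, 12 rose and 4 fell (median 0.44). Among them HSPE1 was at 1.40 ± 0.28, LONP1 at 1.74 ± 0.38, CLPP at 1.01 ± 0.22 and MDH2 at 0.83 ± 0.17. With the correction CLPP changed sign, to -0.22 ± 0.07, and by library totals alone 6 housekeeping genes were higher and 6 lower. All these named changes passed the edgeR test over all genes (adjusted p from 0.00601 to 0.0477) before the correction, and over all genes 29.4% were called higher and 27.8% lower.

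**Figure D4:**
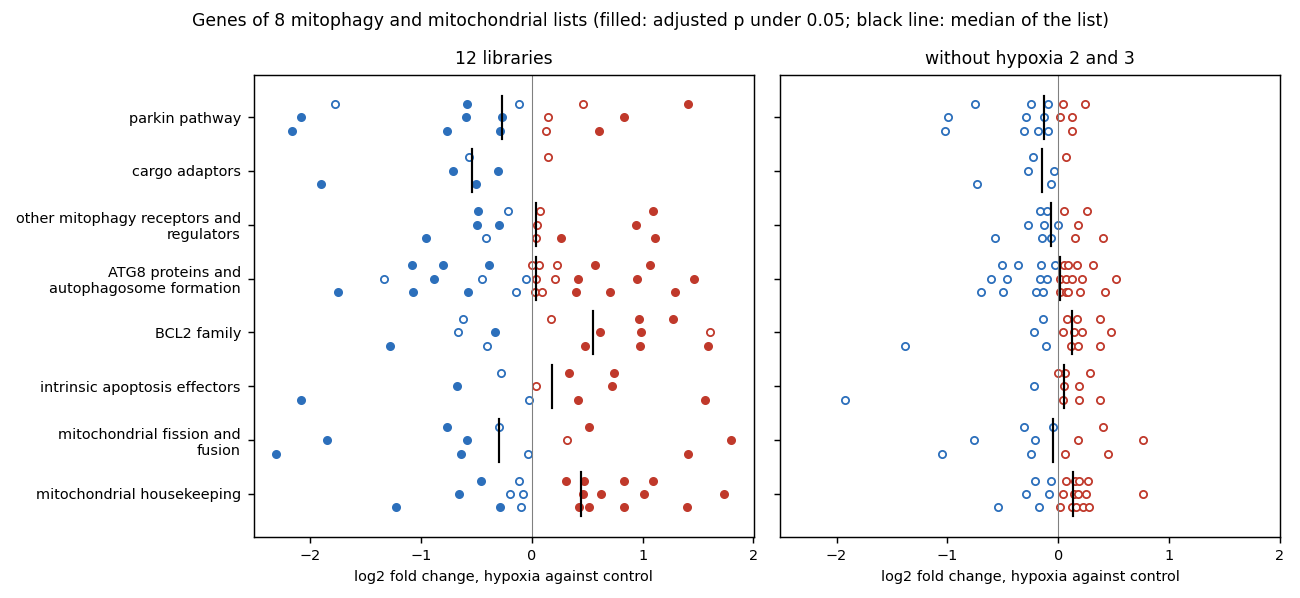
Log2 fold change in hypoxia against control (x axis) of every tested gene of 8 lists, fitted to 12 libraries (left) and without hypoxia 2 and 3 (right); filled symbols have an adjusted p under 0.05, red is higher, blue is lower, and black lines are list medians. Filled symbols are found on both sides of 0 with 12 libraries. The right panel has none, where hypoxia is 1 library and few genes of the whole table were called.

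With TEPA present, 0 genes of any list were called between TEPA+hypoxia and TEPA over 12 libraries, where 0.0969% of all genes were. Without hypoxia 2 and 3, where 1.32% of all genes were called higher, 2 were: OMA1, the protease that cleaves OPA1 under stress, rose by 0.65 ± 0.11 (9.38 to 14.6 CPM, adjusted p = 0.00906, edgeR), and the survival protein MCL1 by 0.29 ± 0.06 (232 to 281 CPM, adjusted p = 0.0384). In TEPA+hypoxia against hypoxia over 12 libraries, 30.9% of all genes were called higher and 30.6% lower, and the lists held calls in both directions. Higher and lower calls numbered 5 and 1 of the 6 genes of the adaptor list. SQSTM1 was the lower one, at -0.55 ± 0.10. Such calls numbered 4 and 8 of 14 BCL2 family genes, 3 and 12 of 20 housekeeping genes, and 6 and 11 of 26 genes of autophagosome formation. They numbered 5 and 5 of 15 genes around PINK1 and parkin, 5 and 5 of 13 other receptors, 2 and 5 of 10 effectors, and 5 and 3 of 11 fission and fusion genes. With the GC and length correction, 23.4% of all genes were higher and 25.1% lower. The adaptor list then had 2 and 1, the BCL2 family 4 and 4 and the housekeeping genes 2 and 13. Against hypoxia 1 alone (7.98% of all genes higher, 7.17% lower) the same lists had 1 and 1, 0 and 3, and 0 and 5. This comparison and the one against control share the hypoxia libraries.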

How the data were processed

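RNA was extracted with TRIzol and sequenced from poly(A)-selected libraries made with the NEBNext Ultra directional kit, per the labels' protocols. The submitters' processing notes name HISAT2 2.1.0, GRCh38 and DESeq. For the read counter, its annotation and its strand setting, the value is not given in the sources used here. Values in the table, as the authors deposited it, are raw read counts per gene symbol in 12 libraries, with 0 other per-sample columns.

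Counts were filtered by group (filterByExpr), scaled by TMM and fitted with edgeR 4.0.16 (R 4.3.3) to all 12 libraries with 1 mean per group. Differences were tested two-sided by the quasi-likelihood F-test over 14447 genes, called at an adjusted p under 0.05, and the SE was derived from F. The genes tested held 99.9% of counts. Log2 CPM used a prior count of 2. The scripts were tested on simulated data. Alternatives used limma 3.58.1 (voom), DESeq2 1.42.0, other scalings and filters, the replicate block, libraries left out, and a per-library spline correction (4 degrees of freedom) for GC content and length, which had values for 12556 genes (86.9%) by symbol from GENCODE 29 transcripts. The correction without hypoxia 2 and 3, and scaling by library totals alone, were added after seeing the data.

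The 6 genes and the pathway lists were chosen with earlier results of these data known. From each list, the text names up to 4 genes with the smallest p in hypoxia against control and up to 2 in other comparisons. Positions are from GENCODE 29 on GRCh38.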

Additional observations from a re-analysis of the deposited data

Results flagged for a closer look

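In 3 of the 6 genes, the response to low oxygen with TEPA differed from the response without it by the interaction test (edgeR, adjusted p under 0.05). That test called 38.8% of all genes tested. Of all genes tested, 17.3% were called higher and 21.5% lower. The difference was -0.46 on the log2 scale for BNIP3, -1.04 for FAM162A and -1.13 for PHB2. Over the libraries, BNIP3 was higher at low oxygen in 3 of 3 libraries with and in 3 of 3 without TEPA. FAM162A and PHB2 were higher in 3 of 3 hypoxia libraries than in control, but with TEPA the FAM162A libraries overlapped and PHB2 was lower in 3 of 3. In 27.4% of all genes every hypoxia library lay above every control library. With TEPA, 12.5% of all genes were likewise higher in every library at low oxygen and 18% were lower in every one. Without hypoxia 2 and 3 the differences were -0.44, -0.39 and -0.48, none called. With the GC and length correction that of PHB2 was -0.21 and not called, while those of BNIP3 (-0.84), FAM162A (-1.67) and BNIP3L (-0.59) were. With that correction 10.9% of all genes were called lower. By library totals alone that of BNIP3 was -0.18 and not called.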

How the results depend on the processing

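In hypoxia against control, 4 of the 6 genes were called, and 0 when only the groups compared were fitted, 1 without hypoxia 2 and 3, and 2 with the GC and length correction without hypoxia 2 and 3. In TEPA+hypoxia against TEPA, 0 were called, and 1 by DESeq2, 2 with only the groups compared, 2 without hypoxia 2 and 3 and 2 with the correction added to that. In TEPA+hypoxia against hypoxia, 4 were called (61.5% of all genes were), and 2 by library totals alone (59.8% of all genes). For the interaction, 3 were called, and 0 without hypoxia 2 and 3, 0 with the correction and the replicate block together, and 0 with the correction without hypoxia 2 and 3. Leaving out 1 library at a time gave 3 to 4 called genes for low oxygen without TEPA, 0 to 2 for low oxygen with TEPA, 0 to 0 for TEPA at normal oxygen, 3 to 5 for TEPA at low oxygen and 0 to 3 for the interaction. In that order, 34.7% to 71.8%, 0% to 1.72%, 0% to 0.0338%, 45.8% to 73.5% and 0% to 66% of all genes were called. Shares over 12 libraries were 57.2% for hypoxia against control, 0.0969% for TEPA+hypoxia against TEPA (0.816% by DESeq2) and 38.8% for the interaction. With only the groups compared, the first 2 were 0% and 2.54%.

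Deviations of same-numbered libraries from their group means were correlated at r from -0.36 to 0.32 across genes. With 3 libraries per group, and hypoxia 2 and 3 apart from hypoxia 1, these values cannot show whether the numbers pair the samples. With the replicate block, 3, 0, 0, 3 and 3 of the 6 genes were called in the same order of comparisons. The shares of all genes called were 53.3%, 0.0623%, 0%, 58.2% and 31.4%. BNIP3 kept its call in hypoxia against control in 24 of 25 alternatives, FAM162A in 22, PHB2 in 20 and BNIP3L in 9. Of the 25, 12 leave out 1 library and so keep hypoxia 2, hypoxia 3 or both. In all 12 of those BNIP3, FAM162A and PHB2 were called, and BNIP3L in 2. PHB2 was not called in any fit with the GC and length correction. Over the whole table, genes called in that comparison ran from 0 to 10623 across the alternatives. The cause of these changes was not tested.

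Signs changed as follows. In hypoxia against control, PINK1 was at -0.10 with the correction and -0.091 with the block added, PHB2 at -0.019 with the correction without hypoxia 2 and 3, FUNDC1 at -0.017 by library totals, NBR1 at 0.095, 0.094 and 0.016 with the correction, the block added, and without hypoxia 2 and 3, and ENDOG at -0.021 in the last of these. In the same 3 corrected fits of that comparison, TOMM40 was at -0.21, -0.21 and -0.20, CALCOCO2 at 0.20, 0.20 and 0.11, BAX at -0.26, -0.26 and -0.21, and CLPP at -0.22, -0.22 and -0.12; BBC3 was at -0.12 in the first pair, and FKBP8 at -0.066 and HTRA2 at -0.15 in the last. In TEPA+hypoxia against TEPA, leaving out 1 library gave -0.14 to 0.029 for FAM162A and -0.0081 to 0.17 for PINK1. In TEPA against control, BNIP3 was at 0.014, 0.015 and 0.00996 in the 3 corrected fits, and leaving out 1 library gave -0.044 to 0.051 for BNIP3L and -0.012 to 0.14 for FUNDC1. In TEPA+hypoxia against hypoxia, BNIP3L was at -0.064 without hypoxia 2 and 3 and at -0.51, -0.50 and -0.27 in the 3 corrected fits, and PINK1 at -0.086 without hypoxia 2 and 3. For the interaction, BNIP3L was at -0.077 without hypoxia 2 and 3 and at -0.59, -0.59 and -0.35 in the corrected fits, and PINK1 at 0.25, 0.25 with the correction and with the block added and 0.072 by library totals, with -0.53 to 0.032 when 1 library was left out. PINK1, at 17 to 48 counts per library, is limited most by depth.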
